A study of Mus musculus with 26 samples.

Results

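The 10 genes described here belong to the tight junction, and are the claudins Cldn1, Cldn2, Cldn3, Cldn4, Cldn6, Cldn7, Cldn12 and Cldn18, occludin (Ocln) and the scaffold Tjp1. They were taken by symbol, whatever the case of the letters, and all 10 were found among the 55391 gene symbols of the count table. The cells were the murine lung cancer lines EA1, EA2 and EA3, which carry the EML4-ALK fusion. They received the ALK inhibitor alectinib at 100 nM or its solvent DMSO at 0.1%. There was 1 library for each line, treatment and day on days 1, 2, 3 and 5, so that a line had 4 DMSO and 4 alectinib libraries, and 2 further libraries were labelled EA3 day 7. All 3 lines came from C57BL/6 mice whose lung tumors were induced with an adenovirus that delivered Cas9 and guides to Eml4 and Alk. Each group was 1 established line in culture. No day was repeated, and nothing states that the days were independent cultures, so that p-values measure the spread between days within a line, which may be technical.

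Tight junctions seal the gap between neighbouring epithelial cells near their apical side. Claudins are proteins that cross the membrane 4 times and pair across that gap, and the mixture of claudins that a cell makes sets whether the seal is a barrier or a channel for particular ions. Occludin is a further membrane protein of the same strand, and Tjp1, also called ZO-1, holds the cytoplasmic tails of claudins to actin. In the adult lung, Cldn18 is known as the claudin of the alveolar epithelium, together with Cldn3 and Cldn4, whereas Cldn6 is known from embryonic epithelia and Cldn2 from leaky, cation-permeable epithelia such as the proximal kidney tubule.

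Library totals ran from 5780062 to 11732401 counts (median 9252878). Levels are given as CPM, which are counts scaled to library size, here with edgeR's TMM factors, and a count of 3 in a library was taken as the floor of detection, for counting error only. In 24 of the 30 pairs of a gene and a line, at least 1 of the 8 libraries exceeded that floor. Etv4, Etv5 and Dusp6, which report MAPK signaling, were lower with alectinib in all 3 lines, with log2 fold changes between -2.34 and -6.66. Of 5 epithelial markers, Krt8, Krt18, Krt19 and Cdh1 were above the floor in all lines, but Epcam in DMSO averaged 132 CPM in EA3 and no more than 1.35 CPM in the others, with 0.494 CPM in EA2. The alveolar type 2 markers summed to at most 1.42 CPM in any library, with Sftpc and Sftpa1 at or under 3 counts in every line and treatment. Fibroblast transcripts moved with treatment: of 6 tested, alectinib raised 5 in EA1 and in EA3 and 3 in EA2. Of all genes, 19% rose in EA1, 17.5% in EA3 and 13% in EA2. Some of these fibroblast calls were near the floor, such as Col1a2 in EA1, at a mean of 0 CPM in DMSO and 0.463 CPM with alectinib. Others were not, such as Col3a1 in EA1, at 1.35 and 142 CPM. The summed level of the 8 listed was 9.08 to 44.1 CPM in DMSO and 126 to 478 CPM with alectinib in EA1. For EA2 these ranges were 58.5 to 71.5 and 122 to 239.8 CPM, and for EA3 they were 10.2 to 20.2 and 84.8 to 274 CPM. Thy1 stayed at or under 3 counts in every line and treatment. Their part in the results below was not tested.

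The libraries labelled EA3 day 7 did not carry the claudins of the other EA3 libraries. The DMSO library labelled EA3 day 7 held 0 counts of Cldn4, 2 of Cldn7, 2 of Ocln and 1048 of Cldn6, and the alectinib library 0, 2, 2 and 138 counts. In the EA3 libraries of days 1 to 5, Cldn4 had at least 763 counts and Cldn6 at most 18. Across genes, the DMSO library labelled day 7 correlated with the EA2 libraries at r = 0.942 to 0.977 and with the EA3 libraries at r = 0.857 to 0.889. These libraries went against their label and were left out. Values with them are given beside the calls for alectinib in EA3, and levels between the lines were not compared with them.

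Each line expressed a different leading claudin in DMSO. In EA1, Cldn2, a claudin that forms pores for cations and water, stood at 581, 742, 283 and 399 CPM on days 1, 2, 3 and 5. In EA2, the same gene stood at 11.4, 10.8, 7.82 and 11.1 CPM, and in EA3 at 97.3, 132, 112 and 83.7 CPM. The 3 lines did not overlap. EA2 was lower than EA1 by a log2 difference of -5.64 (SE 0.33, adjusted p = 5.01e-08), EA3 was lower than EA1 by -2.23 (SE 0.28, adjusted p = 7.36e-05), and EA3 was higher than EA2 by 3.41 (SE 0.30, adjusted p = 2.55e-06).

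Cldn6, the embryonic claudin, led in EA2, where its DMSO libraries held 338, 352, 251 and 320.1 CPM. Those of EA1 held 5.65, 4.01, 1.18 and 4.01 CPM, and those of EA3 held 1.62, 1.98, 0.792 and 0.330 CPM. EA2 lay far above the other lines on every day, with a log2 difference from EA1 of 6.37 (SE 0.46, adjusted p = 3.26e-07) and of EA3 from EA2 of -7.93 (SE 0.51, adjusted p = 1.83e-07). The neighbouring claudin gene Cldn9, which the annotation places 138 bases from Cldn6, reached at most 7 counts in any library.

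EA3 expressed Cldn3, Cldn4 and Cldn7 together, claudins of barrier-forming epithelia of which Cldn3 and Cldn4 also serve as receptors of an enterotoxin of Clostridium perfringens. Cldn4 stood at 107, 125, 101 and 159.8 CPM in the DMSO libraries of EA3. No DMSO library of EA2 held a read of it, and in EA1 the day 5 library alone did, with 9 counts. Against a floor of 3 counts in each EA2 library, the mean of EA3 was at least 387-fold higher. Cldn3 stood at 110.5, 175, 87.3 and 138 CPM in EA3 and at 8.06, 6.39, 8.52 and 7.39 CPM in EA2, a log2 difference of 4.11 (SE 0.26, adjusted p = 1.83e-07), and EA1 held 1 to 3 counts. Cldn7, which binds Epcam, stood at 48.0, 60.9, 38.3 and 97.0 CPM in EA3 and at 0 to 2 counts in each library of EA1 and EA2 (EA3 against EA1, adjusted p = 1.24e-07; EA3 against EA2, adjusted p = 8.27e-08). Cldn4 and Cldn7 passed the filter on low counts through EA3 alone, as did Ocln, so that a difference between the lines was built into their being tested.

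Occludin was also highest in EA3, at a lower level than Cldn4 and Cldn7 in CPM per kilobase. Ocln stood at 9.24, 9.56, 8.05 and 26.2 CPM in EA3 and at 1.15, 0.891, 0.748 and 1.68 CPM in EA1, a log2 difference of 3.57 (SE 0.50, adjusted p = 0.000174). EA2 held 1 count in 1 of its 4 DMSO libraries. The groups did not overlap, and the day 5 library of EA3 was the highest.

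Cldn12 and Tjp1 were found in all lines at levels that differed less. Cldn12, an unusual claudin without the tail motif that binds ZO-1, stood at 32.5, 37.2, 52.2 and 38.6 CPM in EA1, at 41.3, 51.4, 35.9 and 29.6 CPM in EA2 and at 101, 93.7, 142 and 81.7 CPM in EA3. EA3 was above both others, by 1.38 on the log2 scale over EA1 (SE 0.24, adjusted p = 0.000878) and by 1.44 over EA2 (SE 0.24, adjusted p = 0.000517). The difference between EA2 and EA1 was -0.06 with a 95% confidence interval of -0.57 to 0.44. Tjp1 had 223 to 377 CPM in EA1 and 139.8 to 186 CPM in EA2, its EA3 libraries reached from 109.7 to 309.6 CPM, and it was the only member of 9 tested in which the 3 lines did not pass the common test in DMSO (adjusted p = 0.0552). It did pass with a block for the day (adjusted p = 0.0244), with DESeq2 (0.0383) and without a filter on low counts (0.0234). Its pairwise difference between EA2 and EA1 of -0.89 did pass (SE 0.28, adjusted p = 0.0286), but not without day 1 (0.0811), day 3 (0.0989) or day 5 (0.1).

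Cldn18 and Cldn1 were close to the floor in DMSO. Cldn18 had 10 to 28 counts in EA2, 1 to 9 in EA3 and 0 to 4 in EA1, and EA2 was higher than EA1 by a log2 difference of 3.06 (SE 0.65, adjusted p = 0.00286). Cldn18 passed the filter through EA2 alone, so that this difference too was built into its being tested. Cldn1, a claudin of the epidermal barrier, had 6 to 12 counts in EA2, 3 to 12 in EA3 and 0 in all of EA1, and did not pass the filter for the DMSO comparison.

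In DMSO, 8 of the 9 members tested differed between the lines, where 39.7% of all genes did. By pairs, 6 of 9 differed between EA2 and EA1 (29.3% of all genes), 7 between EA3 and EA1 (22.2%) and 8 between EA3 and EA2 (25.6%). With alectinib, Cldn1 passed the filter and Cldn18 did not, and all 9 members tested differed between the lines (63.5% of all genes), by pairs 7 (48% of all genes), 7 (38.3%) and 9 (44.7%). In each treatment, 4 of the 9 had passed the filter through 1 line alone, Cldn4, Cldn7, Ocln and Cldn18 in DMSO and Cldn1, Cldn3, Cldn4 and Cldn7 with alectinib, so these counts cannot be read against the shares of all genes. Tjp1 was then lower in EA2 than in EA1 by -0.77 (SE 0.17, adjusted p = 0.00255), and EA3 was higher than EA2 by 0.57 (SE 0.17, adjusted p = 0.015), a call lost for Tjp1 without day 1 (0.123) or day 2 (0.0889). Against the same floor in each library, the alectinib mean of Cldn1 in EA3 was at least 30.7-fold above EA1, and that of Ocln in EA3 was at least 50.7-fold above EA2, since no alectinib library of the lower line had a read of the gene.

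**Figure D1:**
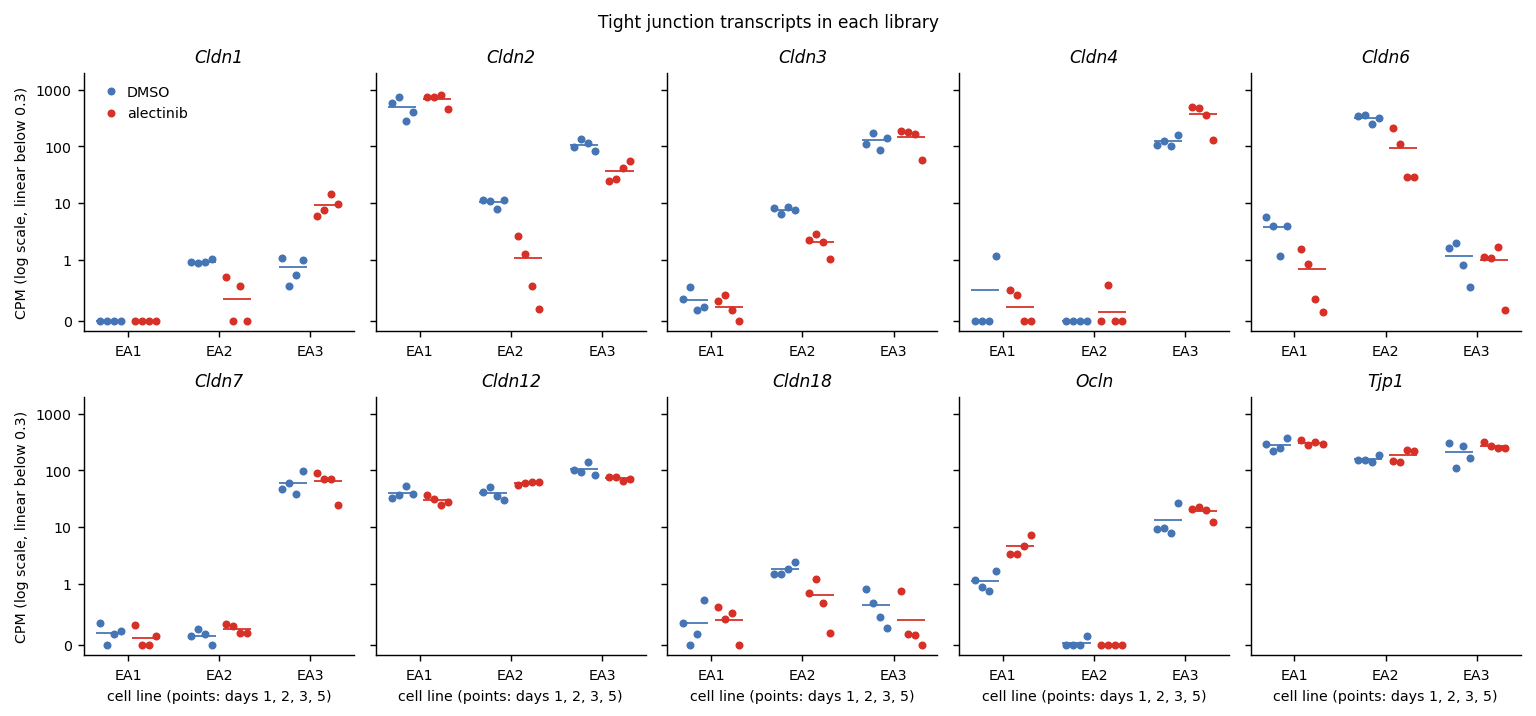
Level of each gene in each library, in CPM on a log axis that is linear below 0.3, for the 3 lines. Points are days 1, 2, 3 and 5 from left to right, blue for DMSO and red for alectinib, and bars are means. Cldn2 is highest in EA1, Cldn6 in EA2, and Cldn3, Cldn4, Cldn7 and Ocln in EA3, whereas Cldn12 and Tjp1 lie within a narrow range.

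The upstream sequences of the claudins that led in 1 line are shown here. Each run is the 250 bases before the transcription start of the RefSeq annotation (build GRCm38.p6), on the strand of the gene. Cldn2 is the window chrX:139800558-139800807 on the plus strand, Cldn6 chr17:23679115-23679364 on the plus strand, Cldn3 chr5:134985964-134986213 on the plus strand, Cldn4 chr5:134946935-134947184 on the minus strand and Cldn7 chr11:69964529-69964778 on the plus strand, the more upstream of 2 starts. Capitals mark matches on either strand to the E-box CAGGTG, the AP-1 motif TGANTCA, the ETS motif CCGGAAG, the Sp1 and KLF motif GGGCGG and the TEAD motif GGAATG, none of which overlapped in these windows.
Cldn2: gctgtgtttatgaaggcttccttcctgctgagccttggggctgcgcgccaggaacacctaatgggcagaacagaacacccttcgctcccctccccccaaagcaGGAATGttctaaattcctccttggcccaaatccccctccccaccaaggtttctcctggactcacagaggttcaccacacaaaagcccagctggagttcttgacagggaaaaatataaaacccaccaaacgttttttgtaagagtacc
Cldn6: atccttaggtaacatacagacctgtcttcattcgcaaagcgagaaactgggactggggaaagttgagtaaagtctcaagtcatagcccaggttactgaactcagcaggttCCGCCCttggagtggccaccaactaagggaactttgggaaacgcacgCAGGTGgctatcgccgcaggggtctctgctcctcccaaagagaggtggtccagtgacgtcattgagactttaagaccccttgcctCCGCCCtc
Cldn3: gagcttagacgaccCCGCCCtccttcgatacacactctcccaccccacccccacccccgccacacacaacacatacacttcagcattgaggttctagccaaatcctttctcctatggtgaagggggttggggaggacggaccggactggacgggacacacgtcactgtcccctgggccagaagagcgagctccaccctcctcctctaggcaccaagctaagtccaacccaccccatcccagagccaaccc
Cldn4: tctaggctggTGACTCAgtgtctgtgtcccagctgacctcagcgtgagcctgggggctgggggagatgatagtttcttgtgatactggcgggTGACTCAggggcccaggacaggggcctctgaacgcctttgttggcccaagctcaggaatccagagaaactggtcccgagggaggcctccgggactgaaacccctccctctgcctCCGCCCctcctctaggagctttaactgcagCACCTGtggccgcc
Cldn7: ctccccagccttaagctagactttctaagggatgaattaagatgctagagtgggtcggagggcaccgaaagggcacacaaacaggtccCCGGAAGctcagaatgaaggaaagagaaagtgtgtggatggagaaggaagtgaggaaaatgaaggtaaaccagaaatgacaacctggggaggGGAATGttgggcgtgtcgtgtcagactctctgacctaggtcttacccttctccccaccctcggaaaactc

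Cldn4 holds the AP-1 letters at 2 places, which 6.75% of the 32851 windows of this annotation do at least once, with 1 E-box (17.2% of windows) and 1 GGGCGG (32.7%). Cldn6 holds 1 E-box and GGGCGG at 2 places, and Cldn3 holds only 1 GGGCGG. Cldn2 holds only 1 GGAATG (12.6% of windows). Cldn7 holds 1 CCGGAAG (6.91%) and 1 GGAATG in this window. A match is a run of letters and says nothing of binding, and no factor was measured on these sequences.

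Cldn3 and Cldn4, both led by EA3, are neighbours on chromosome 5, at 134986214 to 134987472 on the plus strand and at 134945119 to 134946934 on the minus strand (GENCODE, GRCm38), with 39280 bases and 0 coding genes between them. Each has 1 exon block. The antisense gene Wbscr25 shares 40 bases with Cldn3, 3.18% of its exon bases, and none of the other members shares exon bases with another gene of the annotation. Cldn7 lies elsewhere, on chromosome 11 at 69964779 to 69967885, and Ocln on chromosome 13 at 100496507 to 100552718. Cldn2 lies on chromosome X at 139800828 to 139811386 and Cldn6 on chromosome 17 at 23679249 to 23682446. Cldn1 is on chromosome 16 at 26356642 to 26371841, Cldn12 on chromosome 5 at 5489537 to 5514958, Cldn18 on chromosome 9 at 99689461 to 99717267 and Tjp1 on chromosome 7 at 65296165 to 65527781.

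Per kilobase of exon, which lets genes be set beside each other, 1 claudin made up most of the claudin transcript in EA1 and in EA2, and several shared it in EA3. Of the summed CPM per kilobase of the 8 claudin members in DMSO, Cldn2 held 91.6% ± 3.8 in EA1 (SD, n = 4 days), Cldn6 held 90.5% ± 1.2 in EA2, and in EA3 Cldn3 held 38.7% ± 5.5, Cldn4 26.3% ± 3.0, Cldn2 12.7% ± 3.0, Cldn7 11.9% ± 3.5 and Cldn12 10.1% ± 4.2. The summed claudin level itself differed less, at 163 ± 60.0 CPM per kilobase in EA1, 202 ± 27.1 in EA2 and 258 ± 45.7 in EA3. The level of Tjp1 per kilobase was 36.5 ± 8.6, 20.1 ± 2.6 and 27.5 ± 11.8 CPM in the same order, and that of Ocln was at most 6.20 CPM in any DMSO library.

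**Figure D2:**
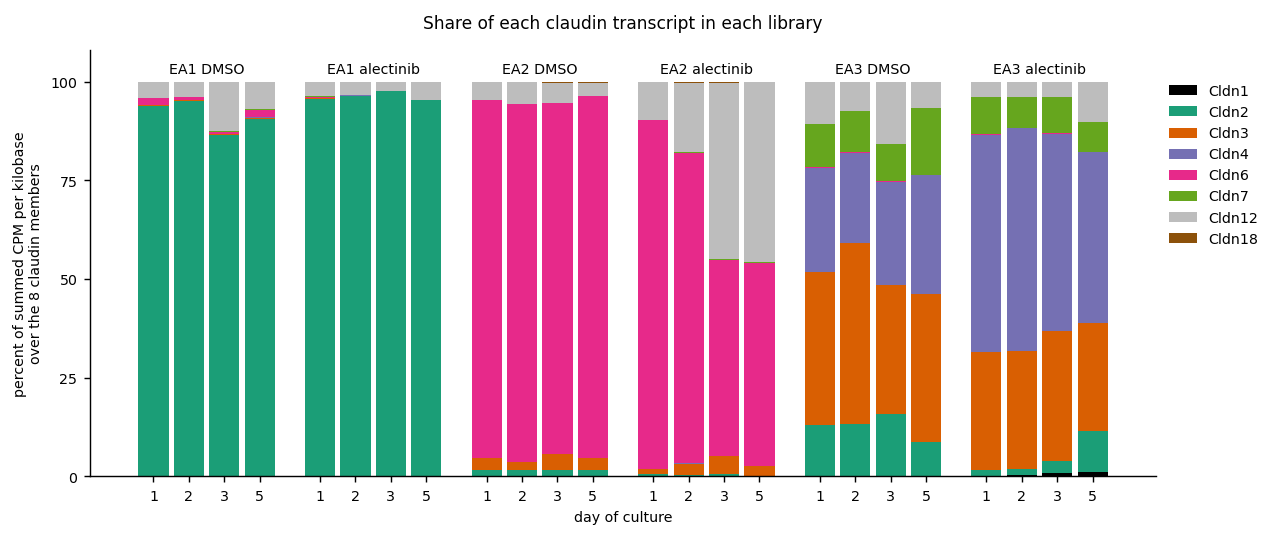
Percent of the summed CPM per kilobase that each of the 8 claudin members held in each library, by day of culture. Cldn2 fills the EA1 bars, Cldn6 fills those of EA2 in DMSO, Cldn12 reaches 45.5% in EA2 with alectinib, and Cldn4 holds 22.9% to 30.1% in EA3 in DMSO and 43.4% to 56.4% with alectinib.

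Within the lines, alectinib and DMSO libraries were compared to see which junction transcripts moved when ALK was inhibited. In EA1, Ocln rose and Cldn6 fell, and the leading Cldn2 did not pass the test. In bulk libraries, fewer cells that express a gene and less RNA per cell cannot be told apart. Ocln went from the DMSO values given above to 3.38, 3.43, 4.66 and 7.37 CPM, above all DMSO libraries, with a log2 fold change of 2.05 (SE 0.45, adjusted p = 0.00568). Cldn6 went to 1.54, 0.857, 0.207 and 0.0838 CPM and overlapped the lowest DMSO library, with a log2 fold change of -2.57 (SE 0.62, adjusted p = 0.00683), and was lower on 4 of 4 days. Cldn2 stood at 736, 749, 819 and 454 CPM with alectinib, a log2 fold change of 0.51 with a 95% confidence interval of -0.26 to 1.27, and of 0.14 without day 3. Cldn12 had -0.42 (interval -0.87 to 0.04) and Tjp1 0.15 (interval -0.31 to 0.62). Cldn1 had no read in any EA1 library, and Cldn3 and Cldn7 did not exceed 3 counts. Of the 10 members, 1 was higher, where 19% of all genes were, and 1 was lower, where 14.6% were. The groups did not overlap for 1 member and for 31.4% of all genes. Among the epithelial markers of EA1, Krt18 fell, with a log2 fold change of -1.51 (adjusted p = 0.00387), and Epcam rose by 2.45 (adjusted p = 0.00497), to a mean of 6.54 CPM.

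In EA2, alectinib lowered Cldn6, Cldn2 and Cldn3, and Cldn12 was higher. Cldn6, the leading claudin of this line, stood at 207, 109, 28.7 and 28.8 CPM with alectinib, all below DMSO, with a log2 fold change of -2.25 (SE 0.42, adjusted p = 0.00184). This Cldn6 call was lost when each line was fitted alone (adjusted p = 0.0509). Cldn2 stood at 2.67, 1.24, 0.338 and 0.112 CPM, the last of which is 1 count, with a log2 fold change of -3.37 (SE 0.51, adjusted p = 0.000375). Cldn3 stood at 2.27, 2.83, 2.03 and 1.01 CPM with a log2 fold change of -1.96 (SE 0.37, adjusted p = 0.00194). All 3 were lower on 4 of 4 days, and the treatment groups did not overlap.

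Cldn12 in EA2 stood at 54.7, 59.7, 63.4 and 62.4 CPM with alectinib, above all DMSO libraries, with a log2 fold change of 0.63 (SE 0.21, adjusted p = 0.0418). This call was lost when any 1 day was left out, with adjusted p from 0.0634 to 0.221. Cldn1 and Cldn18 were also lower on 4 of 4 days without overlap but at few counts, at most 12 and 28 in DMSO and 5 and 7 with alectinib, and neither passed (adjusted p = 0.0709 and 0.131). Cldn18 had entered this fit through the DMSO libraries of EA2 alone, so that its separation was built into its being tested. Tjp1 had a log2 fold change of 0.22 (interval -0.25 to 0.69), and Cldn4, Cldn7 and Ocln did not exceed 3 counts in any EA2 library. Of the 10 members, 1 was higher (13% of all genes) and 3 were lower (11.3%), and the groups did not overlap for 6 members, to which Cldn18 adds nothing, and for 26.8% of all genes. Among the epithelial markers of EA2, Krt8 fell as well, by a log2 change of -2.61 (adjusted p = 0.000352), Krt18 fell by -1.79 (adjusted p = 0.00153), and Cdh1 rose by 1.55 (adjusted p = 0.000116). Their part in these results was not tested.

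The summed claudin level of EA2 was 70.7 ± 49.2 CPM per kilobase with alectinib (SD, n = 4 days), between 32.4 and 136, and that of DMSO lay between 164 and 226. Within it, the share of Cldn6 was 88.3%, 78.5%, 49.6% and 51.6% on days 1, 2, 3 and 5, and the share of Cldn12 was 9.49%, 17.5%, 44.6% and 45.5%. Cldn12 itself lay between 54.7 and 63.4 CPM on these days.

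In EA3, alectinib raised Cldn1 and lowered Cldn2. Cldn1 stood at 1.08, 0.350, 0.528 and 0.989 CPM in DMSO and at 5.82, 7.52, 14.6 and 9.52 CPM with alectinib. The groups were far apart, with 63 to 155 counts against 3 to 12, and the log2 fold change was 3.61 (SE 0.63, adjusted p = 0.0018). With the libraries labelled day 7 included, it was 3.23 (adjusted p = 0.00374). Cldn1 passed the filter on low counts through the alectinib libraries of EA3 alone, so that a difference was built into its being tested. Cldn2 stood at 24.1, 26.5, 40.9 and 56.3 CPM with alectinib, all below DMSO, with a log2 fold change of -1.59 (SE 0.37, adjusted p = 0.00554), and of -1.68 (adjusted p = 0.00225) with the libraries labelled day 7. Without day 2, the fold change of Cldn2 was -1.39 and did not pass (adjusted p = 0.0529).

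Cldn4, the most abundant claudin of EA3 with alectinib, stood at 496, 483, 354 and 130.0 CPM, so that days 1 to 3 were above every DMSO library and day 5 was within their range. The log2 fold change was 1.46 (SE 0.52, 95% confidence interval 0.29 to 2.63) and did not pass over 4 days (adjusted p = 0.0585). Without day 5 it was 1.99 and passed (adjusted p = 0.000808). It also passed without the day block (adjusted p = 0.0167), with each line fitted alone (0.042), with library size alone as the scaling (0.0412) and without a filter on low counts (9.85e-10). It did not pass with DESeq2 (0.648), with DESeq2 size factors or with the libraries labelled day 7 (0.067). Nor did it pass when day 1, day 2 or day 3 was left out.

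Cldn3, Cldn7 and Ocln of EA3 also had their lowest alectinib value on day 5. Cldn3 stood at 185, 177, 164 and 56.7 CPM, Cldn7 at 92.0, 71.8, 69.8 and 24.5 CPM, and Ocln at 20.7, 22.5, 20.4 and 12.6 CPM. Over the 4 days, their log2 fold changes were 0.12 (interval -0.53 to 0.76), 0.08 (interval -0.77 to 0.92) and 0.70 (interval -0.18 to 1.58), none of which passed. Without day 5, Ocln and Cldn7 passed (adjusted p = 0.0164 and 0.0486). Tjp1 was at 244 CPM on day 5 and at 247 to 313 CPM on the other days, and its log2 fold change was 0.43 (interval -0.04 to 0.90).

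Cldn12 in EA3 stood at 78.0, 77.0, 65.8 and 70.2 CPM with alectinib, below all DMSO libraries, with a log2 fold change of -0.49 that did not pass (SE 0.21, adjusted p = 0.0833). Cldn6 and Cldn18 had at most 18 and 9 counts in this line and did not pass. Of the 10 members, 1 was higher (17.5% of all genes) and 1 lower (15.1%), and the groups did not overlap for 3 members and for 23.5% of all genes. The higher member was Cldn1, also 1 of these 3, which adds nothing to either count because of how it passed the filter. Among the epithelial markers of EA3, Krt18 fell, with a log2 fold change of -1.13 (adjusted p = 0.0175), and Cdh1 rose by 0.65 (adjusted p = 0.0237). The share of Cldn4 in the summed claudin level was 55.1%, 56.4%, 49.7% and 43.4% with alectinib on days 1, 2, 3 and 5 and 26.1%, 22.9%, 26.1% and 30.1% in DMSO, so that the shares did not overlap. On day 5 Cldn4 itself was below DMSO, at 130.0 against 159.8 CPM, and the summed level was then at its lowest of 165 CPM per kilobase. That sum was 381 ± 151 CPM per kilobase with alectinib (SD, n = 4 days), up to 495, and lay between 212 and 302 in DMSO.

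**Figure D3:**
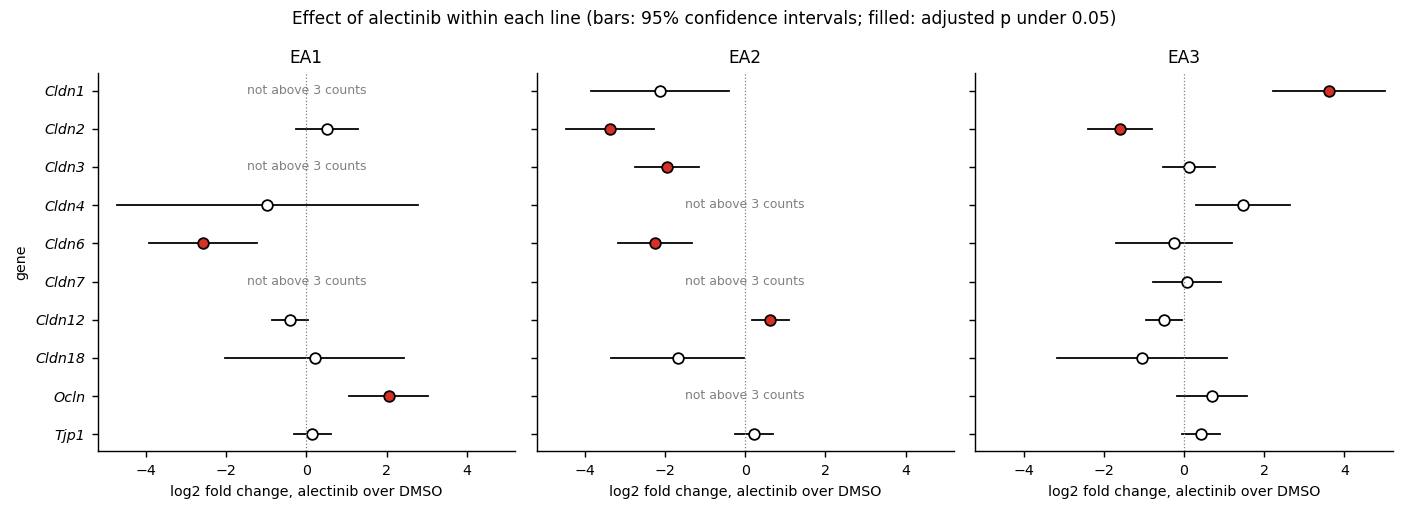
Log2 fold change of alectinib over DMSO for each gene in each line, from 1 fit with a block for every line and day. Points are estimates, filled where the adjusted p is under 0.05, bars are 95% confidence intervals, and genes that did not exceed 3 counts in a line have no point. Cldn2 and Cldn6 lie to the left in EA2, and Cldn1 lies to the right in EA3, at 3.61.

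The effect of alectinib differed between the lines for Cldn1, Cldn2, Cldn3 and Cldn12, 4 of 10 members, where 6.84% of all genes did. Cldn1 had passed the filter on low counts through the alectinib libraries of EA3 alone, so that its difference was built into its being tested and adds nothing to this count. For Cldn2, the effect in EA2 was below that in EA1 by -3.88 on the log2 scale (SE 0.63, adjusted p = 0.00348), the difference between EA3 and EA1 was -2.10 (SE 0.51, adjusted p = 0.0561), and that between EA3 and EA2 was 1.78 (SE 0.64, adjusted p = 0.156). For Cldn1 and Cldn3, the effect in EA3 was above that in EA2 by 5.74 (SE 0.99, adjusted p = 0.0154) and 2.07 (SE 0.48, adjusted p = 0.0359), and EA1 had too few counts of either to compare. With the libraries labelled EA3 day 7, these differences were 5.38 (adjusted p = 0.0866) and 1.82 (adjusted p = 0.148), and neither passed. For Cldn12, the common test passed narrowly (adjusted p = 0.0481), and no pair did (EA3 against EA2 -1.12, SE 0.29, adjusted p = 0.057). These calls depended on single days. Without day 3, the common test passed for none of the 4 genes (adjusted p = 0.122 for Cldn1, 0.0845 for Cldn2, 0.259 for Cldn3 and 0.177 for Cldn12). Cldn2 passed without day 1, 2 or 5 (at most 0.0314), Cldn1 was lost without day 2 (0.0558) or day 5 (0.0744), Cldn3 without day 1 (0.16) or day 2 (0.0983), and Cldn12 without any 1 day. By the common test with the libraries labelled EA3 day 7, Cldn1 and Cldn2 passed (0.0482 and 0.00898), and Cldn3 and Cldn12 did not (0.123 and 0.0663).

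Cldn6 fell in both EA1 and EA2, by 0.33 less on the log2 scale in EA2, with an interval of -1.23 to 1.88 for the difference. The common test for Cldn6 gave an adjusted p of 0.197. For Ocln, the effect in EA3 was below that in EA1 by -1.34 (interval -2.65 to -0.04, adjusted p = 0.317). For Tjp1, the differences were 0.07, 0.28 and 0.21, with intervals between -0.59 and 0.94.

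Days 1 to 5 also give the course over time. In EA2, the log2 ratio of alectinib to DMSO for Cldn2 was -2.01, -2.93, -3.86 and -5.10 on days 1, 2, 3 and 5, with a prior count of 2, and that for Cldn6 was -0.70, -1.69, -3.12 and -3.47. In EA3, the ratio for Cldn4 was 2.21, 1.94, 1.81 and -0.30, that for Cldn7 was 0.94, 0.24, 0.86 and -1.98, that for Cldn3 was 0.75, 0.02, 0.90 and -1.28, and that for Ocln was 1.14, 1.21, 1.32 and -1.05. The 4 genes of EA3 were above DMSO on days 1 to 3, Cldn3 hardly so on day 2, and below it on day 5. Day 5 is a single pair of libraries. Its alectinib library was the lowest of EA3 for all 4 genes. Its DMSO library was the highest for Cldn4 (159.8 CPM), Cldn7 (97.0 CPM) and Ocln (26.2 CPM), but not for Cldn3. Ocln with alectinib on day 5, at 12.6 CPM, was above the DMSO libraries of days 1 to 3.

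Per doubling of days, no member passed in any line by edgeR, and no other tool was run for it. At an unadjusted p under 0.05, Cldn4 and Cldn6 were found in EA1, Cldn2 and Cldn6 in EA2, and Cldn3, Cldn4 and Cldn7 in EA3, which are 2, 2 and 3 members beside 11.5%, 6.03% and 13.2% of all genes. The slope of Cldn4 in EA1 rests on 9 counts in its day 5 DMSO library, with at most 3 counts in any other EA1 library. Few genes of the whole table passed, at 0.021% in EA1, 0% in EA2 and 0.0491% in EA3. The slopes were -1.63 for Cldn2 (SE 0.50, unadjusted p = 0.00798, adjusted p = 0.664) and -1.28 for Cldn6 in EA2 (SE 0.25, unadjusted p = 0.000321, adjusted p = 0.322), and -0.98 for Cldn4 in EA3 (SE 0.30, unadjusted p = 0.0155, adjusted p = 0.257). In DMSO alone, the only member to pass was Cldn4 in EA1 (adjusted p = 0.0297, 1.83% of all genes), which rests on the single library with 9 counts. In EA2 and EA3, 0 members passed with edgeR, where 0% and 6.1% of all genes passed. Members with an unadjusted p under 0.05 also numbered 0 in these lines, beside 1.91% and 23.4% of all genes.

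**Figure D4:**
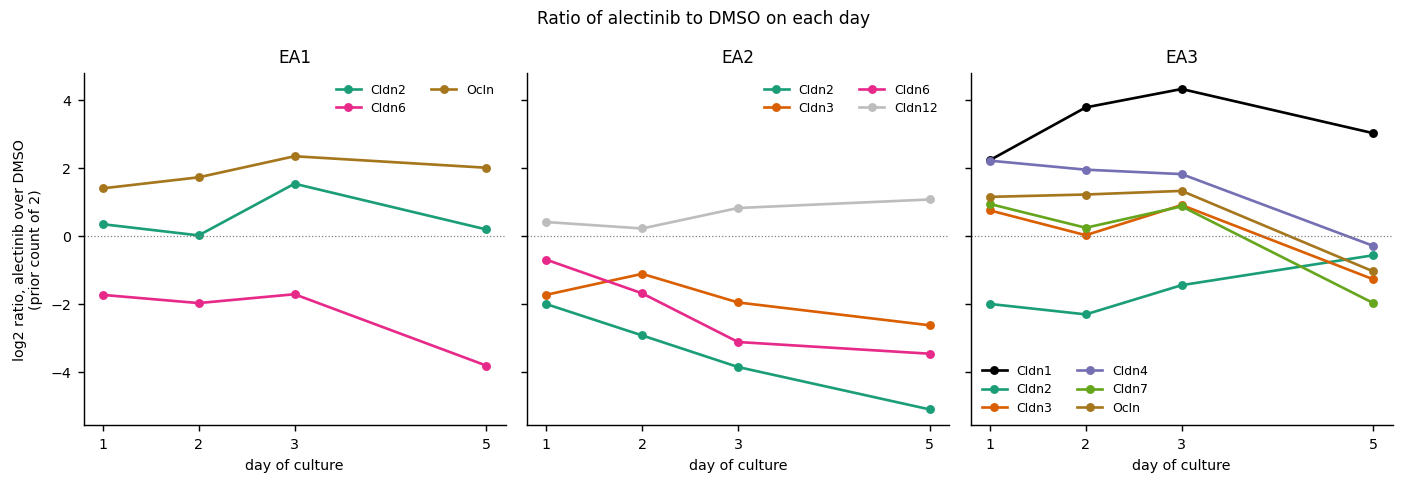
Log2 ratio of alectinib to DMSO, with a prior count of 2, on each day of culture for the members with a call in a line, the leading claudin of EA1 and the claudins and Ocln of EA3. Each point is 1 pair of libraries. Cldn2 and Cldn6 lie lowest on day 5 in EA2, and Cldn3, Cldn4, Cldn7 and Ocln cross below 0 on day 5 in EA3.

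The other 27 claudin symbols of the table added little. Of these, 14 had no read in any of the 26 libraries and 2 reached 20 counts, Cldn23 with at most 54 and Cldn34C1 with at most 115. Cldn34C1 rose in EA1 (log2 fold change 1.11, adjusted p = 0.0155), at 4.17 CPM in DMSO and 8.70 CPM with alectinib, and Cldn23 did not pass in any line.

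Further junction genes were described from lists, by counts alone. Of 23 tested genes of the tight junction list, 9 rose and 1 fell in EA1 (median log2 fold change 0.70), 5 rose and 3 fell in EA2 (0.23), and 12 rose and 1 fell in EA3 (0.94), beside a median over all genes of 0.06, 0 and 0.07. These medians take in every gene tested, including those with few or no counts in a line. Of all genes, 19%, 13% and 17.5% rose and 14.6%, 11.3% and 15.1% fell in EA1, EA2 and EA3. The genes that rose in all 3 lines were Amotl2, an angiomotin that binds YAP, with 1.52, 3.15 and 2.20 on the log2 scale in the order EA1, EA2 and EA3, the scaffold Magi3 with 1.72, 1.60 and 1.81, the scaffold Patj with 0.70, 1.15 and 1.20, and F11r, the adhesion molecule JAM-A, with 0.73, 0.71 and 0.65.

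Of 14 tested genes of the polarity list, 2, 3 and 3 rose and 2, 1 and 1 fell in EA1, EA2 and EA3, which is near the shares of all genes just given. Prkci, an atypical protein kinase C, rose in all lines (1.02, 1.39 and 1.47), and Scrib, a basolateral scaffold, fell in all lines (-0.66, -0.57 and -0.45). Of 19 genes of the adherens junction and desmosome list, 8, 6 and 9 rose and 1, 1 and 0 fell, and those that rose in all lines were the desmosome linker Dsp (1.20, 1.60 and 1.17) and the catenin Ctnnd1 (0.90, 0.36 and 0.76). Of 13 tested epithelial transcription factors, 5, 2 and 3 rose and 1, 2 and 4 fell. Klf5 fell in all lines (-0.96, -0.97 and -1.28). Of 7 repressors of the epithelial state, 1, 2 and 0 rose and 0, 0 and 2 fell. These lists stand beside the same shares, 19%, 13% and 17.5% higher and 14.6%, 11.3% and 15.1% lower.

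The genes most like a member were sought by Pearson's r of log2 CPM over the 24 libraries, among 9920 genes with an average log2 CPM of at least 3. These values mostly describe which line expressed a gene, since libraries of 1 line share their level, and they carry no test. Both Cldn7 and Cldn4 were most like Esrp1, an epithelial splicing regulator (r = 0.996 and 0.983), and Ppp2r2c (0.992 and 0.982). Cldn2 was most like Pear1 (0.973) and Akr1c13 (0.969), Cldn3 most like Wnt7a (0.98) and Tmprss11e (0.968), Ocln most like Atp9a (0.976) and Mal (0.974), and Cldn6 most like 1700012B09Rik (0.95) and Gm10020 (0.945). For Cldn1 they were Ralgps1 (0.893) and Hs6st2 (0.882), for Tjp1 Btbd7 (0.905) and Dync1h1 (0.902), for Cldn12 Ergic1 and Polr1c (both 0.87), and for Cldn18 Gas2l1 (0.813) and Ripply1 (0.798).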

How the data were processed

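RNA sequencing was done on 26 libraries of EA1, EA2 and EA3 cells. The authors checked reads with FastQC, trimmed adapters with bbduk, mapped with STAR to mm10 and deposited raw counts, as its internal counter gave them for each gene. The annotation release and strand column are not given in the sources used here, so reads of Cldn3 and its antisense neighbour may not be told apart. Library totals lay between 5780062 and 11732401 counts. Rows named by date numbers, 24 of 55415, held at most 0.201% of a library and were left out.

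Counts were analysed with edgeR 4.0.16 in R 4.3.3 (limma 3.58.1, DESeq2 1.42.0) and Python 3.11.15. The robust quasi-likelihood test was used, with TMM scaling and filterByExpr on the groups of line and treatment, on 24 libraries with 12 blocks of line and day and an alectinib effect per line. This left 14264 genes. P-values were adjusted over all genes tested (Benjamini-Hochberg), with a threshold of 0.05. Lines were compared with 2 degrees of freedom and by pairs, and slopes are per doubling of days. Libraries of a line and day share a culture day: their deviations from group means correlated between -0.300 and 0.549 across genes. Lists, the 10 members and the motifs were chosen with earlier results of these data known. All 10 members are named. Of a list, genes past the threshold in all lines in 1 direction are named, at most 4 a list.

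Alternatives were DESeq2, its size factors, library size alone, no filter, no day block, a minimum of 10 counts in every library, each line alone, all 26 libraries, each day left out, other prior counts (0.5 and 5), linear days and another gene length. On simulated counts, all 100 genes with a log2 change of 2 and 72 of 100 with a change of 1 were recovered for alectinib in EA1, with 9 of 14064 unchanged genes called. At a change of 1, 35 of 100 were recovered for the effect between lines and 54 of 100 for the slope of the effect in EA3. The changed genes were drawn only from well-counted genes, with a single spread for all genes and the same level in every line. Cldn18, Cldn1 in DMSO and Ocln in the DMSO libraries of EA1 had fewer counts. These shares therefore do not tell how often a change in such members would be found. Protein sequences were not used here. Upstream sequences and gene names came from RefSeq and gene positions from GENCODE on GRCm38, the build of mm10. A genotype detail of the lines and a gene of the lists are not reported here.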

Additional observations from a re-analysis of the deposited data

Results flagged for a closer look

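The effect of alectinib differed between the lines, by the test with 2 degrees of freedom, for Cldn1 (adjusted p = 0.0178), Cldn2 (adjusted p = 0.00618), Cldn3 (adjusted p = 0.0447) and Cldn12 (adjusted p = 0.0481). For Cldn3 the difference is between EA2, where it fell, and EA3, where it did not pass. For Cldn1 it is between EA3, where it rose, and EA2, where it did not pass (adjusted p = 0.0709) at no more than 12 counts. Cldn1 had passed the filter on low counts through the alectinib libraries of EA3 alone, so that this difference was built into its being tested.

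In 47 groups of 4 days with a measured value, 1 day stood apart from the other days in 6 by Dixon's ratio, which chance does for about 1 in 20 groups. The day 5 library of EA3 with alectinib held 56.7 CPM of Cldn3, with 164 to 185 CPM on the other days. The day 5 DMSO library of EA3 held 26.2 CPM of Ocln, with 8.05 to 9.56 CPM on the others. The day 3 DMSO library of EA2 held 7.82 CPM of Cldn2, with 10.8 to 11.4 CPM on the others. The remaining values were near the floor: 1.16 CPM of Cldn4 in the day 5 DMSO library of EA1, where the other days had none, 0.739 CPM of Cldn18 in the day 1 alectinib library of EA3, and 1.03 CPM of Cldn1 in the day 5 DMSO library of EA2.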

How the results depend on the processing

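Of 89 alternative values for the 8 called fold changes, 81 kept direction and call, 8 lost the call and none reversed. Without the day block (the pairing by day), EA3 had 2 members higher (Cldn4 added) and 2 lower (Cldn12 added), and no other count of members with alectinib moved by over 1.5 times. With a day block, 9 in place of 8 members differed in level in DMSO (Tjp1 added). EA3 had 2 higher with each line fitted alone, library size alone or no filter. With at least 10 counts in every library, few members remained to be tested, and 0 were higher or lower in EA1 and EA3, 0 were lower in EA2, 1 differed in effect between lines and 2 in level in DMSO or alectinib. In EA2, 0 were higher with DESeq2 size factors or all 26 libraries, and with all 26 libraries 2 differed in effect. Leaving out 1 day gave 1 to 2 higher members in EA1, 0 in EA2 and 1 to 4 in EA3, 0 to 1 lower in EA3, 0 to 2 that differed in effect (0 without day 3) and 0 to 1 with a DMSO slope in EA1, where linear days gave 0. Fold changes that had not passed and reversed sign were Cldn3 in EA3 (-0.16 with all 26 libraries, -0.18 to 0.56 without 1 day), Cldn7 in EA3 (-0.25 to 0.68 without 1 day), Cldn18 in EA1 (-0.35 to 1.48 without 1 day) and Cldn4 in EA1 (1.44 with DESeq2, -2.27 to 3.84 without 1 day, the highest without day 5, which then passed on at most 3 counts a library). The cause was not tested. Depth limits genes at a few counts, such as Cldn1, Cldn18 and, in EA1, Cldn4.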
